A study of Homo sapiens with 36 samples.

Results

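Members of the bone morphogenetic protein (BMP) pathway, 9 in all, were followed in 2 human cell lines exposed to ACD, the hot water extract made from the monkshood Aconitum carmichaeli Debeaux. They are the secreted regulators KCP and GREM1, the ligands BMP2, BMP4 and BMP6, the inhibitory SMAD protein SMAD6, and the target genes ID1, ID2 and ID3. These 9 rows were taken by symbol from a table of 60675 genes, and all 9 were found. In GENCODE v44 (GRCh38) all are protein-coding genes. They had been picked with their response to ACD in the astrocytoma line already known, so their changes under treatment are given as descriptions with standard errors (SE) and without p-values.

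The cells were SW1783, derived from an astrocytoma, and HT29, derived from a colorectal adenocarcinoma. By the study's methods SW1783 was grown in Leibovitz medium without carbon dioxide and HT29 in DMEM with it. HT29 was also plated more densely. Line and culture conditions therefore cannot be told apart in any comparison of the lines. RNA was taken 24 h after treatment from 12 groups with 3 replicates each, 36 libraries in all. In batch A of each line, cells received vehicle (DMSO, 0.1%) or 10 µM wortmannin, an inhibitor of phosphoinositide 3-kinase used as positive control. In batch B, cells received vehicle or ACD at 20, 100 or 500 µg/mL, named low, medium and high, and each treatment is set against the vehicle of its own batch. Each line is a single tumour-derived culture model, and the labels do not say that replicates came from separate cultures, so p-values measure only the spread between these samples.

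BMP ligands are secreted dimers that bring type I and type II serine/threonine kinase receptors together. The receptors phosphorylate SMAD1, SMAD5 and SMAD9, which enter the nucleus with SMAD4 and switch on the ID genes and SMAD6. ID proteins bind E proteins such as TCF4 and keep them off DNA, while SMAD6 feeds back on the receptors. Outside the cell, GREM1 captures BMP2 and BMP4, and KCP, a chordin-like protein with cysteine-rich repeats, is known to strengthen BMP signalling. In the nervous system the pathway favours astrocyte fates, and in the gut it is known for restraining the crypt stem cell zone.

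The start regions of 4 members that moved in opposite directions in SW1783 are shown for orientation, KCP and GREM1 as genes that rose and ID1 and ID3 as genes that fell. The sequences are from RefSeq (GRCh38.p14), each read on the strand of its gene, and hold up to 250 bases before the start site, leaving out annotated exons. Capitals mark matches, on either strand, to GGCGCC (a GC-rich SMAD1/5 element), CAGAC (a SMAD box), TGATGNAA (the ATF4 element), TGACGTCA (the cAMP response element) or CCAAT.
KCP, chr7:128910720-128910959, minus strand: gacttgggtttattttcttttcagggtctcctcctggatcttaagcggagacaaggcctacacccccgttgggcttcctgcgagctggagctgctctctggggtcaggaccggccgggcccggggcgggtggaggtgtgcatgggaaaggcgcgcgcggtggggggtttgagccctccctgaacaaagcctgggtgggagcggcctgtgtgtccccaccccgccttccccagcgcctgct
GREM1, chr15:32717754-32718003, plus strand: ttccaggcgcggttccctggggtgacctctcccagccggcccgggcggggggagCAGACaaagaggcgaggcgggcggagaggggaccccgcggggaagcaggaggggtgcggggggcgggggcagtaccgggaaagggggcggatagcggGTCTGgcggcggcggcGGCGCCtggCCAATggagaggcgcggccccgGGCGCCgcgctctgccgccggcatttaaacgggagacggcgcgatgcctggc
ID1, chr20:31605039-31605282, plus strand: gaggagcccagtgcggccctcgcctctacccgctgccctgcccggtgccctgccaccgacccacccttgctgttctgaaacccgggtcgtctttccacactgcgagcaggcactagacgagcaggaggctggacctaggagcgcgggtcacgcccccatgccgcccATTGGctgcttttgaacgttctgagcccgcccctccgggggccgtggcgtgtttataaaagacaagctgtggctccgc
ID3, chr1:23559502-23559751, minus strand: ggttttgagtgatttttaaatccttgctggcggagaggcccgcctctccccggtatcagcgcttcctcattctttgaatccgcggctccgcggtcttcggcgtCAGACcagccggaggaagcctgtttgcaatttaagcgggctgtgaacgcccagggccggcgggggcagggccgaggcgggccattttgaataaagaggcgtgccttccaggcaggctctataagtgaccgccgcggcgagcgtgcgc
The GREM1 window held 2 matches to GGCGCC, 2 to CAGAC and 1 to CCAAT, the ID1 window held 1 CCAAT match and the ID3 window held 1 CAGAC match. The KCP window of 300 bases held 1 CAGAC match, which lies past the bases printed here. Of the windows not printed, window 1 of BMP4, which fell in SW1783, held 2 GGCGCC matches and 1 CAGAC match. Windows 2 and 3 of BMP4 each held 1 CAGAC match and no GGCGCC match. Those of SMAD6 and ID2, which fell, and of BMP6, which rose, held neither motif. A second GREM1 window held 2 CAGAC matches and no GGCGCC match. Over 34796 RefSeq promoter windows of 300 bases, GGCGCC occurred in 19.2%, CAGAC in 45.3%, CCAAT in 34.6%, TGATGNAA in 3.63% and TGACGTCA in 1.84%. The motifs found in the printed windows thus occur in many promoters, and a match is a description, not a binding site. Of the 9 members, 8 had an entry in the promoter table, all except BMP2.

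Total counts per library ranged from 15941250 to 33866636, and a count of 0 allows up to 3 counts, or 0.089 to 0.188 CPM (counts scaled to the library total), for counting error only. VIM, an intermediate filament gene used here as an astrocytoma marker, lay between 4076 and 4975 CPM in SW1783 and at most at 0.133 CPM in HT29. The astrocyte markers GFAP and S100B were near the floor in SW1783, with medians of 0.088 and 0.083 CPM. EPCAM, an epithelial marker, ranged from 452 to 585 CPM in HT29, and none of 4 epithelial markers (EPCAM, CDH1, KRT20 and VIL1) was above 0.202 CPM in SW1783. Replicate 2 of HT29 at the high dose stood apart, with a chi-square per degree of freedom of 64.3 and 65.1 against its 2 partners, where those partners differed from each other by 9.33. Same-numbered vehicle libraries of batches A and B differed by only 1.44 to 1.61, less than any pair within a group, so the vehicles of the batches may not be independent of each other.

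The first question was how the 2 lines differed before treatment, in the vehicle libraries of batch B. BMP4 and BMP2 were far higher in HT29, whereas ID1, ID3, GREM1 and BMP6 were far higher in SW1783. Of the 9 members, 7 differed between the lines by the thresholds used throughout, an adjusted p-value under 0.05 and a change of more than 1.5-fold (a differentially expressed gene, DEG), where 55.9% of all genes tested did. The members were not chosen on this comparison, but they were picked with their response in SW1783 known, which requires counts there. GREM1, ID3 and BMP6 had hardly any counts in HT29 and could enter the list only through SW1783. The p-values, from DESeq2's Wald test, are thus given as descriptions, and nothing is read from the count of 7.

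BMP4, a ligand, had 204, 231 and 214 counts in the 3 SW1783 libraries and 5967, 9796 and 6894 in the HT29 libraries. It was 29.9-fold higher in HT29 (normalized counts 6864 ± 355 against 229.9 ± 11.7, mean ± SD, n = 3, log2 difference of SW1783 minus HT29 of -4.90 ± 0.08 SE). BMP2 was 7.10-fold higher in HT29 by DESeq2 (log2 difference -2.83 ± 0.22, adjusted p = 7.37e-38). SMAD6, which is both a feedback inhibitor and a target, was likewise higher in HT29 by 4.64-fold (adjusted p = 5.9e-105, DESeq2). No library of one line overlapped the other for these 3 genes.

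ID3, a target gene, was the clearest contrast in the other direction, with 4699, 5535 and 4459 counts in SW1783 and 1, 3 and 3 in HT29. These HT29 counts lie at or under 3 counts, and the log2 difference was 11.27 ± 0.55 (adjusted p = 1.04e-92, DESeq2). ID1 was 6.32-fold higher in SW1783 (6004 ± 248 against 952 ± 117 normalized counts, n = 3, adjusted p = 1.17e-203 in DESeq2). GREM1, the antagonist, had 306, 367 and 292 counts in SW1783 and 0 in each HT29 library, so that it was at least 94.3-fold higher in SW1783 against the floor of 3 counts per library. It was at 0 in 17 of the 18 HT29 libraries of the whole set, with a single count in the other one. BMP6 had 11, 16 and 10 counts in SW1783 against 0, 1 and 0 in HT29 (log2 difference 5.28 ± 1.35, adjusted p = 0.000176, DESeq2). With a single HT29 count behind it, this difference ranged from 3.54 to 6.0 over the alternative settings tried.

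ID2 and KCP did not meet the thresholds. ID2 had a log2 difference of SW1783 minus HT29 of -0.27 ± 0.09 (adjusted p = 0.00517, DESeq2), which is under 1.5-fold. KCP had 11, 12 and 7 counts in SW1783 and 17, 28 and 24 in HT29, with a log2 difference of -0.99 ± 0.48 (adjusted p = 0.0593, DESeq2). It met the thresholds in edgeR, with a filter on low counts, and in the vehicles of batch A, where the log2 difference was -1.83.

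Levels of different genes can be set side by side only per length, here as CPM per kb of annotated exon. In SW1783 the order was ID1 (221 CPM per kb), ID3 (157), ID2 (12.7), BMP4 (3.37), SMAD6 (1.80), GREM1 (1.05), BMP2 (0.417), BMP6 (0.155) and KCP (0.038), and the libraries of no neighbouring pair overlapped. Per kb the ID genes thus stood above the ligands, while SMAD6 lay below BMP4, and KCP was the lowest of all members before treatment. The order of SMAD6 and BMP4 depends on the exon length used, 8556 bases for SMAD6 and 3096 for BMP4. By normalized count SMAD6 was above BMP4 in these libraries, at 311.1 against 211.4. The places of GREM1 (14784 bases) and KCP (12525 bases) depend on length too. By normalized count GREM1, at 313.0, was above BMP4, and KCP (7.3 to 11.3) overlapped BMP6 (10.4 to 14.0). In HT29 the order was BMP4 (102 CPM per kb), ID1 (35.5), ID2 (15.5), SMAD6 (8.44), BMP2 (3.02), KCP (0.077), ID3 (0.064), BMP6 (0.003) and GREM1 at 0. There the ligand BMP4 led, and KCP and ID3 overlapped per kb, as did BMP6 and GREM1. By normalized count KCP was above ID3 in HT29, at 22.8 against 2.2.

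**Figure D1:**
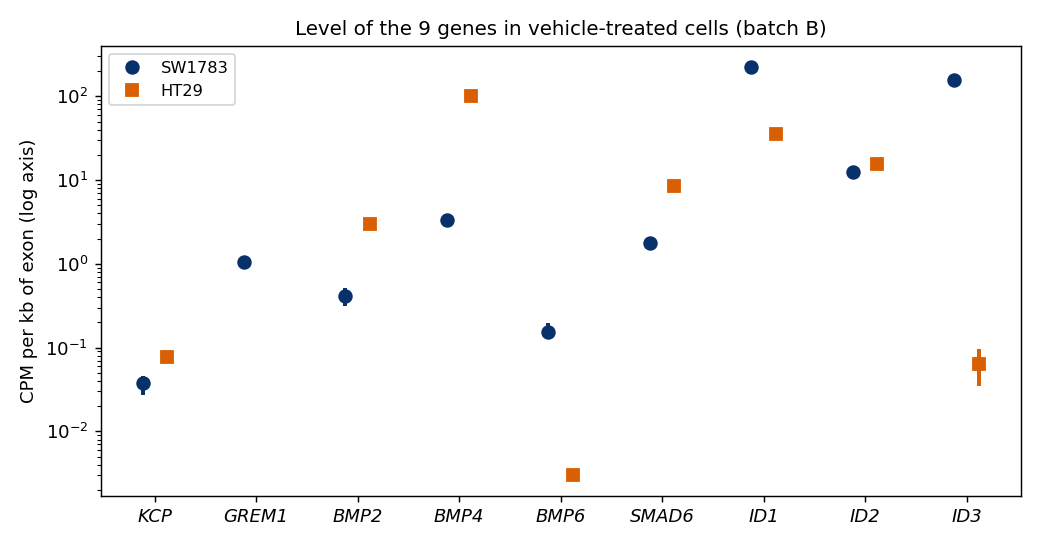
Level of each of the 9 genes in vehicle-treated cells of batch B, in CPM per kb of annotated exon on a log axis, with circles for the mean of 3 SW1783 libraries and squares for HT29, and vertical lines for the range where no library was at 0. ID3 lies at 157 in SW1783 and 0.064 in HT29, BMP4 lies higher in HT29, and GREM1 in HT29, at 0, is not drawn.

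The high dose of ACD moved nearly every member in SW1783. KCP, GREM1 and BMP6 rose and BMP4, SMAD6, ID1, ID2 and ID3 fell. Of 9 members tested, 8 met the DEG thresholds, 3 higher and 5 lower. Over all genes 18.2% met them, 8.66% higher and 9.57% lower. Because the members were chosen on this contrast, nothing is read from that difference. The median log2 fold change of the members was -0.97 and that of all genes -0.01. Normalized counts below are counts divided by the size factor of each library.

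KCP had normalized counts of 11.3, 10.5 and 7.3 under vehicle and 299, 351 and 339.5 at the high dose. All high-dose libraries lay far above all vehicle libraries, which held 30 counts in total against 1010. The change was 33.9-fold (log2 fold change 5.08 ± 0.31 SE). KCP (ENSG00000135253) lies on chromosome 7, 128862042 to 128910719, minus strand. It shares bases with FLNC-AS1 on its own strand and with ATP6V1F and ATP6V1FNB on the other strand.

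Reads from those neighbours could be confused with KCP if the counting did not use strand, which was not stated. The same-strand gene FLNC-AS1 was at most at 1.9 normalized counts in any SW1783 library of batch B. ATP6V1F, a proton pump subunit gene, was at 1827 ± 50.1 under vehicle and 2225 ± 14.7 at the high dose (mean ± SD, n = 3), while its neighbour ATP6V1FNB was at 35.0 ± 2.4 and 103.7 ± 23.2. The part of ATP6V1FNB in the KCP counts was not tested.

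GREM1 had 314, 322 and 304 normalized counts under vehicle and 1390.4, 1434 and 1425 at the high dose. The treated libraries lay close together, far above the vehicle. GREM1 rose 4.52-fold (log2 fold change 2.18 ± 0.07 SE). GREM1 (ENSG00000166923) lies on chromosome 15, 32718004 to 32745106, plus strand, and its antisense partner GREM1-AS1 was at most at 6.2 normalized counts in these vehicle and treated libraries.

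Among the ligands the directions differed. BMP4 had 209, 202 and 223 normalized counts under vehicle and 33.6, 48.7 and 39.3 at the high dose, a 5.16-fold fall (log2 fold change -2.37 ± 0.18). BMP6, a ligand also known for iron regulation through hepcidin, had 11.3, 14.0 and 10.4 under vehicle and 57.9, 51.4 and 44.9 at the high dose, a 4.28-fold rise. For both genes the groups did not overlap. BMP6 shares bases with TXNDC5, a protein disulfide isomerase gene, which was at 13227 ± 37 under vehicle and 13542 ± 257 at the high dose. BMP2 had 23.6, 35.0 and 31.2 under vehicle and 54.4, 46.8 and 40.2 at the high dose. Its libraries did not overlap either, but the log2 fold change of 0.64 ± 0.31 did not meet the thresholds in DESeq2 and did in edgeR and with the filter on low counts. The ligand genes lie on chromosome 14, 53949736 to 53958761, minus strand (BMP4, ENSG00000125378), chromosome 6, 7726099 to 7881728, plus strand (BMP6, ENSG00000153162), and chromosome 20, 6767686 to 6780246, plus strand (BMP2, ENSG00000125845).

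The feedback inhibitor SMAD6 had 275, 322 and 336 normalized counts under vehicle and 92.6, 95.5 and 101.0 at the high dose. It fell 3.22-fold (log2 fold change -1.69 ± 0.13). The gene (ENSG00000137834) lies on chromosome 15, 66702236 to 66782849, plus strand. SMAD6 is itself a target of the pathway, and its direction was that of the ID genes.

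ID2 had the largest fall among the 3 ID genes followed here. Its normalized counts were 589, 580.0 and 532 under vehicle and 106.5, 106.3 and 104.8 at the high dose, a 5.36-fold fall (log2 fold change -2.42 ± 0.11). The 3 treated libraries were almost identical. ID3 had 4815, 4849 and 4641 under vehicle and 1679, 1565 and 1828 at the high dose, a 2.82-fold fall. ID1 had 5259, 5606 and 5698 under vehicle and 2725, 2671 and 3047 at the high dose, a 1.96-fold fall. The genes lie on chromosome 2, 8678845 to 8684461, plus strand (ID2, ENSG00000115738), chromosome 1, 23557926 to 23559501, minus strand (ID3, ENSG00000117318), and chromosome 20, 31605283 to 31606515, plus strand (ID1, ENSG00000125968). The 3 ID genes thus fell by unequal amounts, ID2 most and ID1 least, and the log2 fold changes of ID2 and ID1 were -2.42 ± 0.11 and -0.97 ± 0.10. ID2-AS1, the antisense partner of ID2, was at most at 4.1 normalized counts in any SW1783 library of batch B. In bulk samples fewer cells of a kind and less RNA per cell cannot be told apart.

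**Figure D2:**
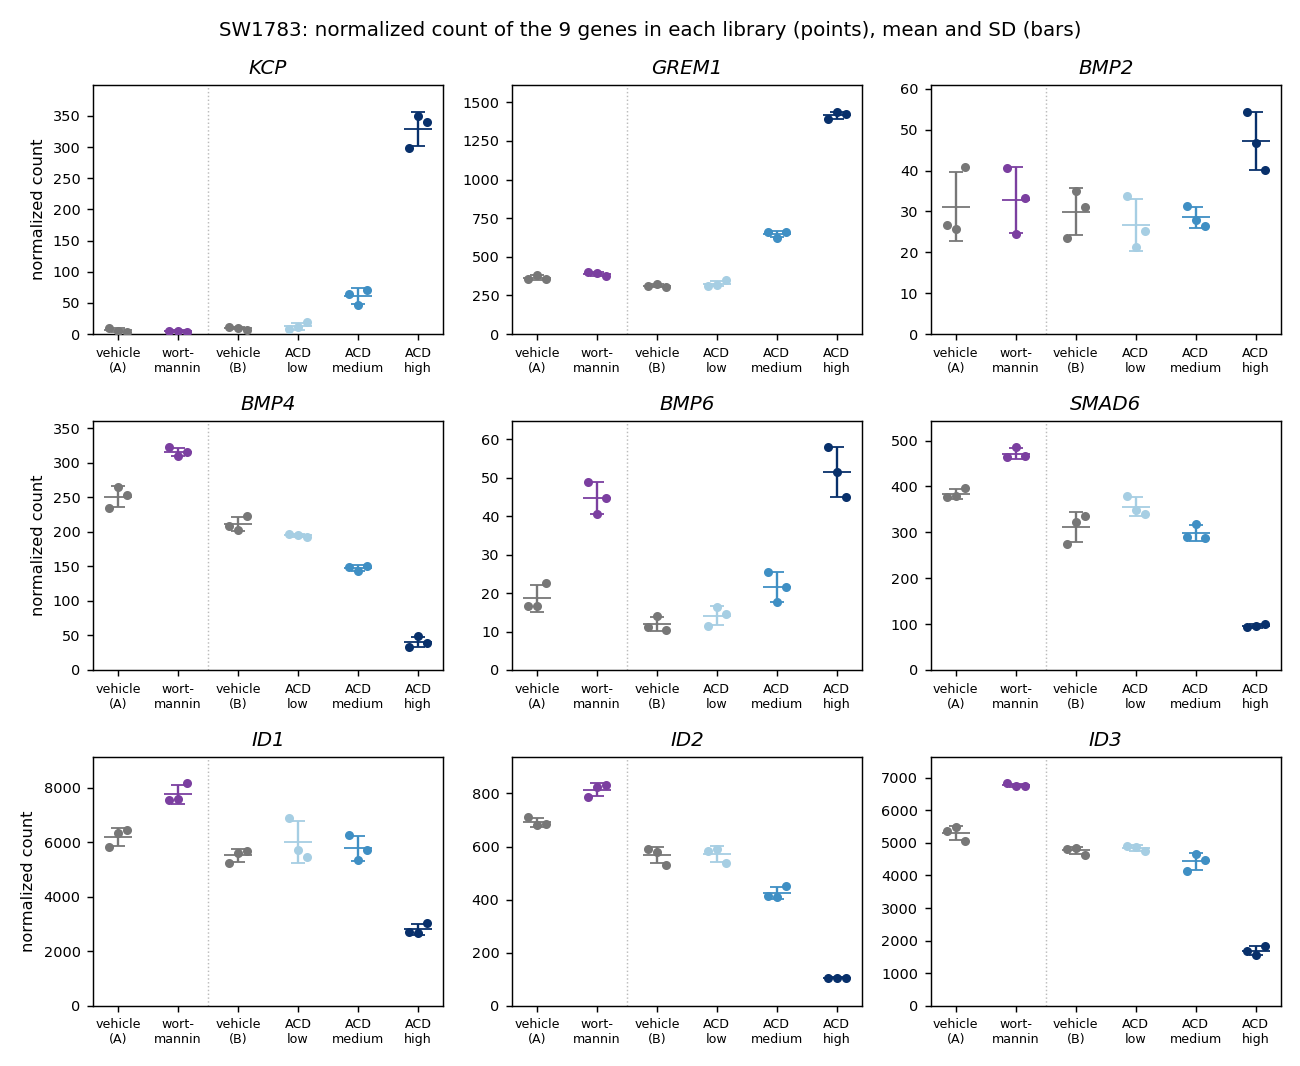
Normalized count of each of the 9 genes in each SW1783 library (points, 3 per group), with the mean (horizontal line) and SD (bars), for batch A left of the dotted line and batch B right of it, each batch normalized by itself. At the high dose KCP, GREM1 and BMP6 lie above their batch B vehicle and BMP4, SMAD6, ID1, ID2 and ID3 lie below it, while at the medium dose ID1 and ID3 lie near vehicle.

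At the medium dose KCP and GREM1 rose, whereas ID1, ID3 and SMAD6 were within 0.11 log2 units of vehicle. Of 9 members tested 2 met the thresholds, where 3.81% of all genes did. KCP had 64.9, 46.6 and 70.7 normalized counts, 6.22-fold above vehicle (log2 fold change 2.64 ± 0.33). GREM1 had 662, 623 and 659.6, 2.07-fold above vehicle. For both genes no medium-dose library overlapped the vehicle or the high-dose libraries, so that they stood between them.

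BMP4 and ID2 were lower at the medium dose by less than 1.5-fold. BMP4 had 149.5, 143.5 and 150.8 normalized counts (log2 fold change -0.51 ± 0.14) and ID2 had 413, 410.1 and 449.5 (-0.42 ± 0.09). Neither gene's libraries overlapped those of the vehicle. BMP6 had 25.5, 17.7 and 21.7 (log2 fold change 0.84 ± 0.40), a change that met the thresholds in edgeR but not in DESeq2. ID1 had a log2 fold change of 0.07 ± 0.10, ID3 of -0.10 ± 0.05, SMAD6 of -0.06 ± 0.11 and BMP2 of -0.08 ± 0.32.

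At the low dose no member met the thresholds in DESeq2. Only 5 of 9 were tested, since DESeq2 leaves out genes with low counts when few genes change, and 0.118% of all genes met them. None of these 5 had an unadjusted p-value under 0.05, and edgeR called 0 members. KCP, one of those not tested, had 7.7, 11.2 and 18.8 normalized counts, which overlap the vehicle. The log2 fold changes of the 5 tested ranged from 0.01 to 0.19. The largest was that of SMAD6, with 379, 349 and 340.1 normalized counts, all above the vehicle libraries. BMP4, not tested at this dose, had 197, 196 and 192.5, all below them.

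The share of counts on the mitochondrial ribosomal RNA genes MT-RNR1 and MT-RNR2 also moved with ACD in SW1783. It was 0.91 to 0.96% under vehicle, 3.01 to 3.33% at the low, 7.67 to 8.05% at the medium and 5.76 to 6.06% at the high dose. In HT29 it was 1.14 to 1.22% under vehicle and 11.3 to 12.5% at the high dose. Its part in these results was not tested.

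With wortmannin most members in SW1783 changed by less than 1.5-fold. Of 8 tested 1 met the thresholds, BMP6, where 2.72% of all genes did. Including BMP6, 6 had an adjusted p-value under 0.05 in DESeq2, all of them higher, and nothing is read from that count. BMP6 had 16.7, 16.6 and 22.7 normalized counts under the batch A vehicle and 49.0, 40.7 and 44.7 with wortmannin, a 2.41-fold rise (log2 fold change 1.27 ± 0.36). Without wortmannin replicate 1 or 3, or with replicate number as a block, DESeq2 gave BMP6 no adjusted p-value, and its log2 fold changes were then 1.20, 1.27 and 1.27.

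ID1, ID2, ID3, BMP4 and SMAD6 were all slightly higher with wortmannin, by less than 1.5-fold. ID1 had 5826, 6337 and 6437.5 normalized counts under vehicle and 7538, 7588 and 8168 with wortmannin (log2 fold change 0.32 ± 0.04). ID3 had a log2 fold change of 0.35 ± 0.03, BMP4 of 0.33 ± 0.12, SMAD6 of 0.30 ± 0.09 and ID2 of 0.24 ± 0.07. These genes were lower at the high dose of ACD, and BMP6 was higher under both agents. KCP had few counts in batch A, with 10.0, 5.5 and 3.4 normalized counts under vehicle and 5.7, 5.1 and 2.6 with wortmannin, and it was not tested.

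**Figure D3:**
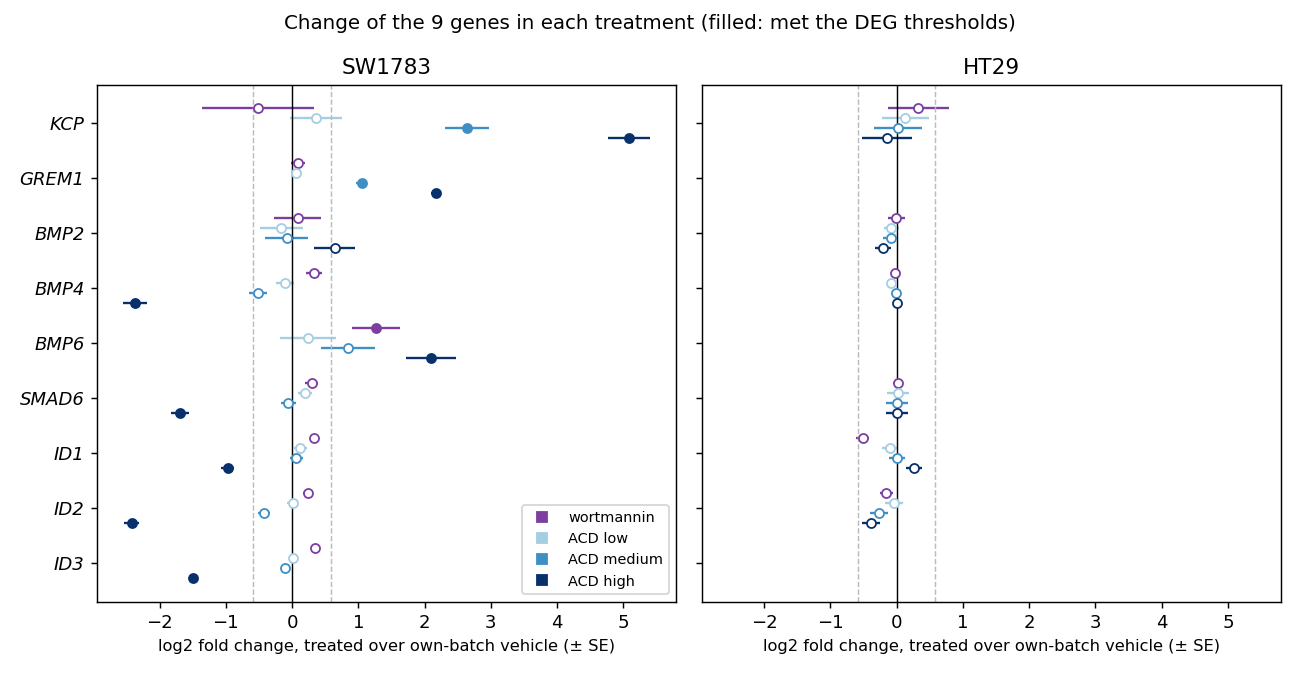
Log2 fold change of each gene against the vehicle of its own batch, with SE bars, for wortmannin and 3 doses of ACD in SW1783 (left) and HT29 (right). Filled points met the DEG thresholds, dashed lines mark 1.5-fold, and genes with a mean normalized count under 5 in a fit are not drawn. In SW1783 KCP reaches 5.08 and ID2 reaches -2.42 at the high dose, while in HT29 no point is filled.

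In HT29 no member met the DEG thresholds under any treatment. Only 6 of the 9 could be tested, because BMP6, GREM1 and ID3 had at most 4, 1 and 5 counts in any library. Over all genes 2.92% met the thresholds at the high dose, 0.827% at the medium dose, 0.321% at the low dose and 2.65% with wortmannin. In DESeq2 the number of members with an unadjusted p-value under 0.05 was 2 at the high dose, 1 at the medium dose, 0 at the low dose and 1 with wortmannin, and edgeR called 0 in each. With the adjusted p-value these numbers were 1, 0, 0 and 1, with changes under 1.5-fold.

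KCP, which had the largest change in SW1783, had 22.5, 20.5 and 25.5 normalized counts in the HT29 vehicle and 29.5, 18.8 and 14.2 at the high dose. The groups overlapped, with a log2 fold change of -0.15 ± 0.37. BMP4, the most abundant member in HT29, had 7899.6, 7167 and 7335 under vehicle and 7562, 7575 and 7404 at the high dose, a log2 fold change of 0.01 ± 0.05. BMP2 had 274, 242 and 245 under vehicle and 232.5, 189.8 and 225.5 at the high dose, which did not overlap, with a log2 fold change of -0.21 ± 0.12. Without replicate 2 the log2 fold changes of KCP, BMP4 and BMP2 were -0.10 ± 0.44, 0.00 ± 0.05 and -0.14 ± 0.13.

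ID2 had 871, 800.4 and 762 normalized counts in the HT29 vehicle and 525, 779.6 and 561 at the high dose (log2 fold change -0.39 ± 0.14). Replicate 2, the library that stood apart, overlapped the vehicle and the other two lay below it. Without replicate 2 the log2 fold change of ID2 was -0.57 ± 0.09, still under 1.5-fold. SMAD6 had 1966, 1185 and 1978 at the high dose against 1595, 1832 and 1691 under vehicle, and its log2 fold change was 0.01 ± 0.17 with replicate 2 and 0.20 ± 0.08 without it. ID1 had 1073, 1383 and 1280.5 at the high dose and 1182, 978 and 948 under vehicle (log2 fold change 0.27 ± 0.12, and 0.19 ± 0.11 without replicate 2).

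At the medium and low doses the log2 fold changes of the 6 tested members in HT29 ranged from -0.27 to 0.02 and from -0.10 to 0.13. With wortmannin ID1 had 695, 686 and 663 normalized counts against 1111, 950.3 and 864 under vehicle. The groups did not overlap, and the log2 fold change of -0.51 ± 0.10 was under 1.5-fold. Without vehicle replicate 3 it was -0.59 and met the thresholds. The other 5 tested members ranged from -0.16 (ID2) to 0.33 (KCP) under wortmannin.

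**Figure D4:**
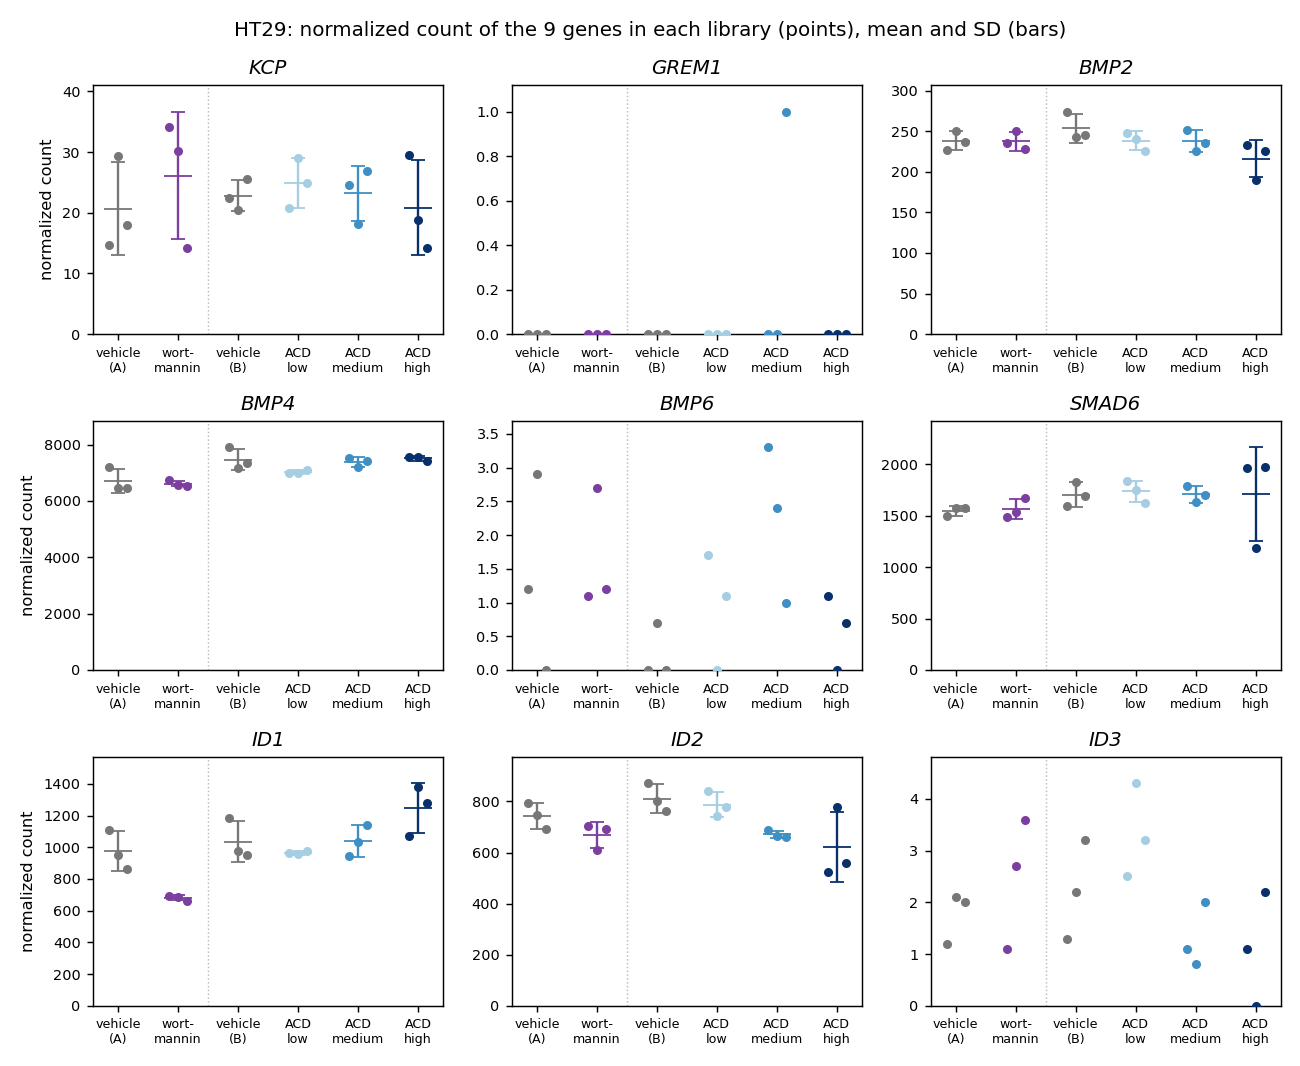
Normalized count of each of the 9 genes in each HT29 library (points, 3 per group), with mean and SD where the gene averaged 5 or more, for batch A left of the dotted line and batch B right of it, each batch normalized by itself. The treated libraries of BMP4, BMP2 and KCP overlap or lie near their vehicle, GREM1, BMP6 and ID3 lie under 5 throughout, and ID1 is lower with wortmannin.

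The difference between the lines was estimated directly as the change in SW1783 minus that in HT29. At the high dose 6 of the 9 members met the thresholds for that difference, where 14.6% of all genes did. Since the members were picked with the SW1783 change known, nothing is read from that count. On the log2 scale it was 5.19 ± 0.45 for KCP, -2.41 ± 0.15 for BMP4, -2.06 ± 0.16 for ID2, -1.74 ± 0.22 for SMAD6, -1.28 ± 0.15 for ID1 and 0.80 ± 0.24 for BMP2. Without replicate 2 of HT29 at the high dose these 6 differences were 5.15, -2.41, -1.90, -1.94, -1.21 and 0.73 in the same order, and all 6 met the thresholds. For GREM1, ID3 and BMP6 HT29 held at most 5 counts in a library, and the SEs of the difference were 1.67, 0.91 and 1.60. At the medium dose KCP alone among the members met the thresholds, with 2.60 ± 0.45, where 3.34% of all genes did. Under wortmannin ID1 alone did, with 0.81 ± 0.10, where 3.36% of all genes did, being slightly higher in SW1783 and lower in HT29.

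Beyond the members, 65 other genes of the pathway were looked up, from a list written from general knowledge but with earlier results of these data known, so that it is not independent of them. All 65 were in the table. Those described are the DEGs with the largest changes by a fixed rule, beside a few (NOG, SMAD1, SMAD5, SMAD7, TCF3, TCF12, ACVR1, BMPR2, MSX2, BAMBI, DAND5, ACVR2B, and ATOH8 in HT29) added after their values were seen. In SW1783 at the high dose more of these listed genes were DEGs lower than higher. Of 47 genes tested 17 were DEGs, 3 higher and 14 lower, where 8.66% and 9.57% of all genes were, and the median log2 fold change was -0.42. Without the fold threshold 38 had an adjusted p-value under 0.05 in DESeq2, 14 higher and 24 lower. As the list is not independent of these data, nothing is read from these counts. By role, 2 of 5 ligands tested fell. Of 13 extracellular modulators 1 rose and 4 fell, of 8 receptors 1 rose and 3 fell, of 11 SMADs and their regulators 1 fell, of 7 targets 1 rose and 3 fell, and of 3 ID partners 1 fell. The median log2 fold change was -1.3 for ligands, -0.46 for modulators and -1.51 for targets. It was -0.03 for receptors, -0.1 for SMADs and their regulators and 0.21 for ID partners.

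Among the targets, ATOH8, a transcription factor gene induced by BMP, went from 618 ± 49.4 to 134.5 ± 6.5 normalized counts (mean ± SD, n = 3, log2 fold change -2.21 ± 0.11, adjusted p = 6.72e-95 in DESeq2). ID4, the fourth ID gene, went from 92.5 ± 7.3 to 32.5 ± 7.1, a 2.85-fold fall (adjusted p = 7.01e-10, DESeq2). So all 4 ID genes were lower. HEY1, a target gene shared with Notch signalling, rose 1.82-fold, from 162.5 ± 9.5 to 295.5 ± 14.3 (adjusted p = 2.5e-10, DESeq2). TCF4, an E protein that ID proteins bind, fell 2.52-fold, whereas the other E protein genes TCF3 and TCF12 had log2 fold changes of 0.21 ± 0.06 and 0.21 ± 0.05.

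Among the modulators, FST, which encodes follistatin, a scavenger of activins and some BMPs, rose 3.97-fold, from 24.3 ± 7.0 to 95.9 ± 7.5 normalized counts (adjusted p = 1.92e-10, DESeq2). TLL1, a protease that cleaves the antagonist chordin, fell 2.94-fold. NOG, the antagonist noggin, did not pass, with a log2 fold change of -0.25 ± 0.42.

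Among ligands and receptors, GDF5 and GDF6 fell, with log2 fold changes of -2.49 ± 0.48 and -1.29 ± 0.10. ENG, which encodes the coreceptor endoglin, went from 6356 ± 224 to 2733 ± 122 normalized counts (adjusted p = 2.23e-233, DESeq2). SMAD9, one of the SMADs that BMP receptors phosphorylate, fell 1.94-fold. SMAD1 and SMAD5 changed by less than 1.5-fold, with log2 fold changes of -0.31 ± 0.11 and -0.10 ± 0.05, as did SMAD7, the other inhibitory SMAD, with -0.34 ± 0.09.

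**Figure D5:**
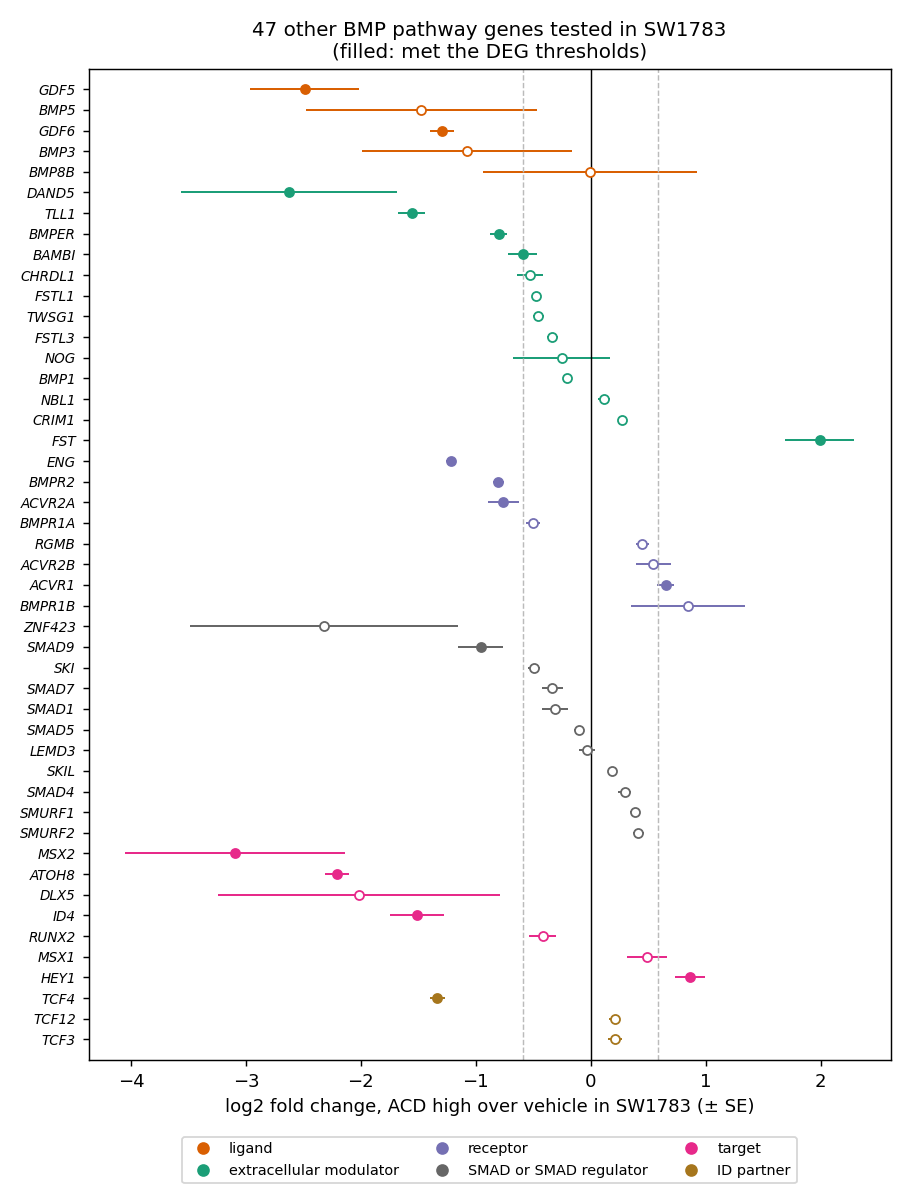
Log2 fold change at the high dose in SW1783, with SE bars, of the 47 other BMP pathway genes that could be tested, one row per gene, coloured by role. Filled points met the DEG thresholds and dashed lines mark 1.5-fold, with 14 filled points on the left and 3, FST, ACVR1 and HEY1, on the right.

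At the medium dose in SW1783 0 of 39 other pathway genes tested were DEGs in DESeq2, where 3.81% of all genes were. Of the 39, 22 had an unadjusted p-value under 0.05. In DESeq2 18 had an adjusted p-value under 0.05, 6 higher and 12 lower, but changed by less than 1.5-fold. The share of all genes at that p-value alone was not counted. EdgeR called 2 other pathway genes, FST and MSX2. FST had 40.9 ± 9.7 normalized counts (log2 fold change 0.76 ± 0.32, adjusted p = 0.0529 in DESeq2). It met the thresholds without vehicle replicate 3 (log2 fold change 1.01) and without medium-dose replicate 3 (0.92). At the low dose 0 of 27 were DEGs, where 0.118% of all genes were, with 5 at an unadjusted p-value under 0.05 and 0 in edgeR.

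Wortmannin raised SMAD9 in SW1783, which was 1 DEG among 39 other pathway genes tested, where 2.72% of all genes were DEGs. SMAD9 went from 122 ± 8.7 to 196 ± 17.8 normalized counts (log2 fold change 0.69 ± 0.16, adjusted p = 0.000103 in DESeq2). It had fallen at the high dose of ACD.

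In HT29 1 of 33 other pathway genes tested was a DEG at the high dose, where 2.92% of all genes were. SOSTDC1, a BMP and Wnt antagonist, went from 439 ± 24.6 to 279.5 ± 46.0 normalized counts (log2 fold change -0.67 ± 0.12, adjusted p = 3.73e-07 in DESeq2). It was -0.57 without high-dose replicate 1, under 1.5-fold, and -0.78 ± 0.12 without replicate 2. BMPR2, a type II receptor gene, had -0.51 ± 0.14 and passed 1.5-fold without high-dose replicate 1 (-0.59), high-dose replicate 3 (-0.60) or vehicle replicate 1 (-0.60). ATOH8 had a log2 fold change of -1.30, over 1.5-fold, but did not meet the threshold on the adjusted p-value. It met both thresholds without vehicle replicate 1 (-1.53, adjusted p = 0.0389 in DESeq2). At the medium and low doses and with wortmannin DESeq2 called 0 of 33, 0 of 33 and 0 of 30, with 3, 1 and 8 genes at an unadjusted p-value under 0.05 and 0 calls in edgeR. An adjusted p-value under 0.05 in DESeq2 was reached by 1, 0 and 2 of these genes, with changes under 1.5-fold. Over all genes DESeq2 called 0.827%, 0.321% and 2.65%.

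Across the 12 batch B libraries of SW1783, the genes whose pattern was most like that of KCP were sought among 12386 genes whose normalized counts averaged 50 or more. Likeness was the Pearson correlation of log2(normalized count + 1), given as a description, since all points share the 4 dose groups. GREM1 ranked first (r = 0.994), followed by CYSTM1 (0.993), CLDN1, APOL6 and TSPYL2 (0.992 each). KCP and GREM1 were both picked with their rise in these libraries known, so nothing is read from that rank. KCP itself averaged over 50 only through its libraries at the medium and high doses. CLDN1, which encodes the tight junction protein claudin 1, averaged 102.6 normalized counts under vehicle and 1303 at the high dose. The genes most like ID1 were MARVELD1 (r = 0.985), IQCE (0.982), ARSI (0.981), FAM222A (0.98) and BCKDHB (0.979), and none of them is a member. Among the members, r of ID1 was 0.977 to SMAD6, 0.968 to ID3, 0.956 to ID2 and 0.942 to BMP4. To KCP and GREM1 it was -0.847 and -0.856. The ranks of these members among the 12386 genes are not given. They were picked with their changes in these libraries known, so nothing is read from these values. In HT29, among 11988 genes, HAX1 was most like ID1 (r = 0.93), then MTDH, PTGR1, COPS7A and PRSS3 (0.906 to 0.892). None of these was named for ID1 in SW1783. Lists this short, out of 11988 and 12386 genes, would rarely share a name. ID1 also met the thresholds at no dose of ACD in HT29, and the HT29 libraries include the high-dose one that stood apart. Nothing about the lines is therefore read from the lack of a shared gene.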

How the data were processed

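Gene expression was measured by RNA sequencing in 36 libraries of the cell lines SW1783 and HT29, 12 groups with 3 replicates each. According to the study's methods and the labels, the authors made directional paired-end mRNA libraries, checked reads with FastQC (0.11.9), trimmed them with Trim Galore (0.6.5 in the submitters' processing notes), aligned them with STAR (2.7.3a there, where the study's methods name other versions of both) and counted them per gene with RSEM (1.3.3) on human annotation. The deposited values are expected counts from RSEM, not normalized by the authors, of which 8.84% were not whole. The sources name GRCh38 beside hg19 and do not state the strand setting of RSEM. Coordinates here are from GENCODE v44 on GRCh38, matched by gene identifier, and promoter sequences are from RefSeq (GRCh38.p14).

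Expected counts were rounded and fitted with DESeq2 (1.42.0, R 4.3.3), the study's tool, by line and batch over all genes. DEGs had a Benjamini-Hochberg adjusted p-value under 0.05 and a change over 1.5-fold (0.585 on the log2 scale). DESeq2 gives no adjusted p-value to genes with few counts, and these are called not tested. Differences between lines came from an interaction term, and baseline differences from the batch B vehicles in one fit. Normalized counts are counts divided by DESeq2 size factors within a line and batch, and CPM per kb uses the union of annotated exons. Library totals of 15941250 to 33866636 counts set the precision. The DESeq2 and edgeR fits of the high dose against vehicle within each line were tested on simulated data.

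The members, and the list of 65 other BMP genes, were chosen with earlier results of these data known. 1 further pathway gene is not reported here. All 9 members are named. Of the others, the text names DEGs averaging 20 or more normalized counts, the 10 with the largest change at the high dose per line and the 3 largest elsewhere, and for likeness the 5 genes with the highest correlation among those averaging 50 or more, with a pseudocount of 1. Alternatives were edgeR (4.0.16) quasi-likelihood tests, TMM size factors, a filter requiring 10 counts in 3 libraries, other libraries in the fit, the replicate number as a block, and leaving out each library.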

Additional observations from a re-analysis of the deposited data

Results flagged for a closer look

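These results were singled out because the change differed between SW1783 and HT29 by the interaction term of DESeq2. At the high dose of ACD the change in SW1783 minus that in HT29, on the log2 scale, was 5.19 ± 0.45 (SE) for KCP, 0.80 ± 0.24 for BMP2, -2.41 ± 0.15 for BMP4, -1.74 ± 0.22 for SMAD6, -1.28 ± 0.15 for ID1 and -2.06 ± 0.16 for ID2. BMP2 had log2 fold changes of 0.64 in SW1783 and -0.21 in HT29, neither of which met the thresholds by itself. Of 45 other pathway genes tested for the difference 8 met the thresholds, where 14.6% of all genes did, so that count is near the share over all genes. The difference was -1.0 for ATOH8 (adjusted p = 0.0207, DESeq2) and -1.53 for ENG (adjusted p = 1e-29, DESeq2). ATOH8 had log2 fold changes of -2.21 in SW1783 and -1.30 in HT29. For HEY1 the difference was 1.83 (adjusted p = 0.0465, DESeq2), with 13 counts in the 3 vehicle and 6 in the 3 high-dose libraries of HT29. The other 5, added after their values were seen, were MSX2 with -3.23 ± 0.81 (4 counts in the 3 high-dose libraries of SW1783), BMPR1A with -0.72 ± 0.08, ACVR2A with -0.68 ± 0.15, ACVR1 with 0.63 ± 0.09 and FSTL3 with -0.61 ± 0.15.

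At the medium dose the difference was 2.60 ± 0.45 for KCP. Of 41 other pathway genes tested 1 met the thresholds, where 3.34% of all genes did. That gene was MSX2, with a difference of -1.995 ± 0.599 (adjusted p = 0.013, DESeq2). Under wortmannin it was 0.81 ± 0.10 for ID1, which had log2 fold changes of 0.32 in SW1783 and -0.51 in HT29.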

How the results depend on the processing

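The 8 members that were DEGs at the high dose in SW1783 kept their calls and directions in each of 11 alternatives (KCP 4.92 to 5.19 on the log2 scale), and BMP2 joined them in edgeR and with the filter on low counts. Members called in SW1783 under wortmannin numbered 1, and 0 with the replicate block, where DESeq2 gave BMP6 no adjusted p-value. Leaving out 1 library gave 0 to 1 there, 0 to 1 for members in HT29 under wortmannin (ID1, without vehicle replicate 3) and 1 to 3 for the other pathway genes in HT29 at the high dose (main 1). For the other pathway genes in SW1783 at the medium dose edgeR called 2, the filter on low counts 1 and leaving out a library 0 to 1, against 0. At the high dose they numbered 17, 19 in edgeR and 16 to 18 without 1 library (BAMBI or DAND5 lost, ACVR2B gained). The baseline difference of KCP was called in edgeR (-1.0), with the low-count filter (-0.99) and in batch A (-1.83). No result that met the thresholds reversed its direction. Changes under treatment that did not meet them were not checked for this, and the causes were not tested.

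Replicate numbers were not taken to pair treated with vehicle samples: their same-numbered deviations correlated between -0.312 and 0.203, and no treatment had all 3 pairs over 0.1. The closeness of same-numbered vehicles of batches A and B concerns vehicles alone. With the replicate block no other count of calls among these genes moved by over 1.5 times. Over all genes edgeR called more DEGs than DESeq2 with wortmannin (706 against 362 in HT29, 803 against 379 in SW1783), at the medium dose (912 against 537 in SW1783) and at the low dose (131 against 11 in SW1783, and 134 against 33 for the difference between lines). Other libraries in the fit gave 299 against 480 in HT29 at the high dose and 6 against 11 in SW1783 at the low dose, and the block gave 201 against 362 in HT29 with wortmannin and 272 against 458 for its difference between lines.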
